A study of Mus musculus with 6 samples.

Results

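The 8 subunits of the CCT chaperonin (Tcp1, Cct2, Cct3, Cct4, Cct5, Cct6a, Cct7 and Cct8) and Myc were examined in regulatory T cells (Tregs) with and without Zfp335. The members were chosen by name as readouts of cell growth, and all 9 were found among the 13709 gene rows of the count table and passed the filter on low counts. Bulk RNA-Seq had been done on sorted CD4+CD25+YFP+ Tregs of C57BL/6 mice, with 3 WT and 3 KO samples. The methods of the study give an age of 2 weeks. WT mice were Foxp3Cre and KO mice were Foxp3Cre Zfp335fl/fl, so both genotypes carried the Cre allele. The sample labels call the controls wild-type littermates instead. Cre and YFP are made from the Foxp3 locus, so that Zfp335 is deleted only once a cell has expressed Foxp3, and the YFP gate selects cells with an active Foxp3 locus. The labels name both lymph nodes and spleen as the source of the cells, and pooling of mice was not stated.

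CCT, also called TRiC, is a cytosolic chaperonin built from a pair of stacked rings. Each ring holds one copy of each of the 8 different subunits around a chamber, and ATP hydrolysis closes the chamber over a protein that is folding inside. Actins and tubulins depend on it, as do several proteins with WD40 repeats, among them the cell cycle regulator Cdc20. Prefoldin hands newly made actin and tubulin chains to CCT. Myc is a transcription factor that pairs with Max at E-box sequences and raises the expression of genes for ribosome production, metabolism and division when T cells are activated. Mxd proteins and Mnt compete with Myc for Max and repress the same kind of genes.

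Values are in CPM (counts relative to the library total, with TMM scaling, a trimmed mean of M values). Fold changes, standard errors (SE) and adjusted p-values come from edgeR's quasi-likelihood test over all 13594 genes that passed the filter. A gene was called, and is said to have risen or fallen, when it passed the cutoffs of the study, namely a change of more than 1.5-fold with p under 0.05 and adjusted p under 0.1. By this rule 3318 genes were called, or 24.4% of those tested. A second rule sets no fold cutoff and takes an adjusted p under 0.05, and such genes are described as higher or lower. It held for 38.6% of the genes.

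Zfp335, the targeted gene, had 101.3, 94.3 and 103 CPM in the WT samples (replicates 1 to 3, the order used throughout) and 37.0, 37.9 and 40.2 CPM in the KO samples. It fell with a log2 fold change of -1.37 (SE of 0.07, adjusted p 2.14e-05), in the direction of the labels. WT replicate 3 stood apart from the other WT samples on the second principal component, which held 18.4% of the variance, so values without it are given where they matter. Of 8 Treg and T cell genes, Ikzf2, Foxp3 and Cd3d fell, and Foxp3 still reached 459.7 to 472.3 CPM in KO. The call of Foxp3 rests on WT replicate 3, without which its log2 fold change was -0.57 (adjusted p 1.27e-06), short of the fold cutoff. Cd3d lies at that cutoff (log2 fold change -0.59), and it was called in 2 of 6 fits with a sample left out and in 4 of 7 others. Myeloid markers summed to 46.8 to 55.0 CPM in WT and 85.6 to 94.3 CPM in KO, and 5 of 7 rose (3 without KO replicate 1 or KO replicate 3). NK cell markers summed to 3.78 to 5.89 CPM in WT and 15.4 to 17.3 CPM in KO. Of these, 3 of 4 rose (2 without WT replicate 1, WT replicate 2, KO replicate 2 or KO replicate 3). Eomes alone had a mean of 2.31 CPM in WT and 11.3 CPM in KO. Klrb1c was called in 2 of 6 fits with a sample left out. B cell markers summed to 18.7 to 20.7 CPM in WT and 12.8 to 13.7 CPM in KO, and 1 of 6 fell. Of 2 CD8 markers 1 rose (0 without WT replicate 2, KO replicate 1 or KO replicate 3), and of 5 erythroid genes 0 were called (3 without WT replicate 3). Over all genes tested, 11.9% rose and 12.5% fell. The part of these cell types in the results below was not tested. In bulk samples, fewer cells of a type and less RNA per cell cannot be told apart, and CPM is a share of each library that does not show the amount of RNA per cell.

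All 9 genes are placed here on GRCm38, the assembly that mm10 denotes, with GENCODE M21 gene models. Tcp1 lies at chr17:12915701-12925067 on the plus strand, Cct2 at chr10:117051001-117063814 on the minus strand, and Cct3 at chr3:88297116-88321767 on the plus strand. Cct4 is at chr11:22990519-23003780 (plus), Cct5 at chr15:31590800-31601804 (minus), Cct6a at chr5:129786998-129846371 (plus), Cct7 at chr6:85451514-85468475 (plus) and Cct8 at chr16:87483326-87495873 (minus). Myc is at chr15:61985391-61990374 on the plus strand, with 3 exons in its longest transcript, where the CCT subunits have 11 to 16. The subunits of one complex are thus encoded on 8 different chromosomes.

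To show what the promoters of the CCT genes share, 4 short motifs were searched on both strands in RefSeq windows of GRCm38.p6 that run from 250 bases before to 50 bases after a gene's start. There were entries for 7 of the 9 members. Those for Cct4 and Myc were missing. The GC box (GGGCGG) was found in 7 of 7, against 35.6% of all 32817 windows. The CCAAT box (CCAAT), bound by the factor NF-Y, was found in 4 of 7, against 37.4%. The core of a heat shock element (GAANNTTC), the kind of site that Hsf1 binds, was found only for Cct2, against 7.86%. The E-box to which Myc and Max bind (CACGTG) was found in 0 of 7, against 7.15%. A member was counted if any of its windows held the motif, and Cct2 and Cct5 had 2 windows each. The background counts single windows, so the shares are not fully alike. The windows of the 7 members held 55.3% to 67.7% G and C, and the background was not matched for this. A match is a description of the letters, not a shown site. Stretches of 30 bases around 1 match for each of 5 members are printed on the gene's strand, with the motif in capitals. ATTGG is the CCAAT box read on the opposite strand.
Tcp1: atccctggctcaCCAATcaccgcagacgtt
Cct2: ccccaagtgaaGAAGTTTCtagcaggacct
Cct3: ctaatactgtcgATTGGcctatgtttttgt
Cct6a: cgttggattaagCCAATcagcgggcggcag
Cct7: aggccacttcctATTGGccaggagaagtgg

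These stretches lie at chr17:12916185-12916214 for Tcp1, chr10:117063399-117063428 for Cct2, chr3:88297049-88297078 for Cct3, chr5:129787285-129787314 for Cct6a and chr6:85451368-85451397 for Cct7. The matches begin 132 bases before the RefSeq start of Tcp1, 42 before that of Cct2, 74 before that of Cct3, 59 before that of Cct6a and 125 before that of Cct7. Cct6a and Cct3 each held another CCAAT box nearer the start, and Cct7 held 3 in all.

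The CCT subunits were higher in KO for 4 of 8, lower for 1 and not separated by the test for 3. None of the 8 was called at 1.5-fold, against a background of 11.9% of all genes called higher and 12.5% called lower. With no fold cutoff, Tcp1, Cct2, Cct6a and Cct7 were higher (4 of 8, background 19.2%) and Cct4 was lower (1 of 8, background 19.4%). The log2 fold changes of the 4 higher genes lay between 0.38 and 0.48. The median log2 fold change of the 8 subunits was 0.28, against -0.04 for all genes tested. The summed level of the 8 was 1862, 1968 and 1852 CPM in the WT samples and 2332, 2203 and 2211 CPM in the KO samples, so that the groups did not overlap.

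Tcp1, the subunit also called CCT1 or CCT-alpha, was measured at 224, 235 and 215 CPM in the WT samples and at 319, 311 and 308 CPM in the KO samples. Every KO sample was above every WT sample. The log2 fold change was 0.48 (SE 0.06, adjusted p 0.00108), with a 95% interval from 0.33 to 0.63 that reaches past the 1.5-fold cutoff of 0.585. Tcp1 overlaps Mrpl18 by 645 bases and Acat3 by 1255 bases, both on the opposite strand, and use of the strand in counting was not stated. Acat2, which has its own row, is 98.7% identical to the Tcp1 transcript over 445 bases, so reads could be split between them. The value of Tcp1 is thus uncertain. Mrpl18, a mitochondrial ribosomal protein gene whose start lies 644 bases from that of Tcp1, rose with a log2 fold change of 0.78 (SE of 0.12, adjusted p 0.002). It had 45.9 ± 6.81 CPM for WT and 78.5 ± 7.21 CPM for KO (SD, n = 3).

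Cct2 (CCT-beta) was measured at 316, 338 and 342 CPM in WT and 439, 435 and 428 CPM in KO. The groups were separate, and the log2 fold change was 0.39 (SE 0.06, adjusted p 0.00252). No overlapping gene and no similar copy was found for Cct2 in the annotation. It thus gives a higher level in KO without the reservation that applies to Tcp1.

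Cct7 (CCT-eta) was measured at 195, 205 and 196 CPM in WT and at 281, 251 and 261 CPM in KO. Its groups did not overlap, and its log2 fold change was 0.41 (SE 0.07, adjusted p 0.00278). Cct7 shares 457 bases with Pradc1 on the opposite strand, and its pseudogene copy Gm5380 is 93.5% identical over 569 bases, so reads could be split between them. Pradc1 was counted at 8.57 ± 1.11 CPM for WT and 9.61 ± 0.28 CPM for KO (SD, n = 3), and Gm5380 did not exceed 0.788 CPM in any sample.

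Cct6a (CCT-zeta, the broadly expressed form) was measured at 180, 190 and 167 CPM in WT and 239, 228 and 232 CPM in KO, again without overlap. The log2 fold change was 0.38 (SE 0.07, adjusted p 0.0045). Psph, a serine synthesis enzyme gene on the opposite strand, overlaps Cct6a by 452 bases, and its log2 fold change was 0.05 (adjusted p 0.782). Cct6b, the form of this subunit known from testis, was near the limit of detection at 0.152 to 0.691 CPM in WT and 0.11 to 0.425 CPM in KO.

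Cct4 (CCT-delta) was the one subunit with a lower level in KO. It was measured at 196, 229 and 223 CPM in WT and at 188, 183 and 177 CPM in KO, with every KO sample below every WT sample. WT replicate 1 lay nearest to the KO samples. The log2 fold change was -0.24 (SE 0.08, adjusted p 0.0421), so KO was lower by a smaller amount than the other 4 were higher. This difference was the least stable of the 5. With 1 sample left out in turn, its adjusted p was between 0.0114 and 0.155, and it stayed under 0.05 in 2 of 6 fits, those without WT replicate 1 and without WT replicate 3. No overlapping gene or similar copy was found for Cct4.

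Within a sample, the ratio of Cct4 to Tcp1 does not depend on how the libraries are scaled. The ratio of their CPM was 0.875, 0.972 and 1.03 in the WT samples and 0.588, 0.589 and 0.576 in the KO samples. It was lower in each KO sample than in each WT sample, and varied little within KO. The uncertainty in the value of Tcp1 given above applies to the ratio too. The pair was picked after the values were seen, as the subunits at the ends of the order, so no test is given.

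**Figure D1:**
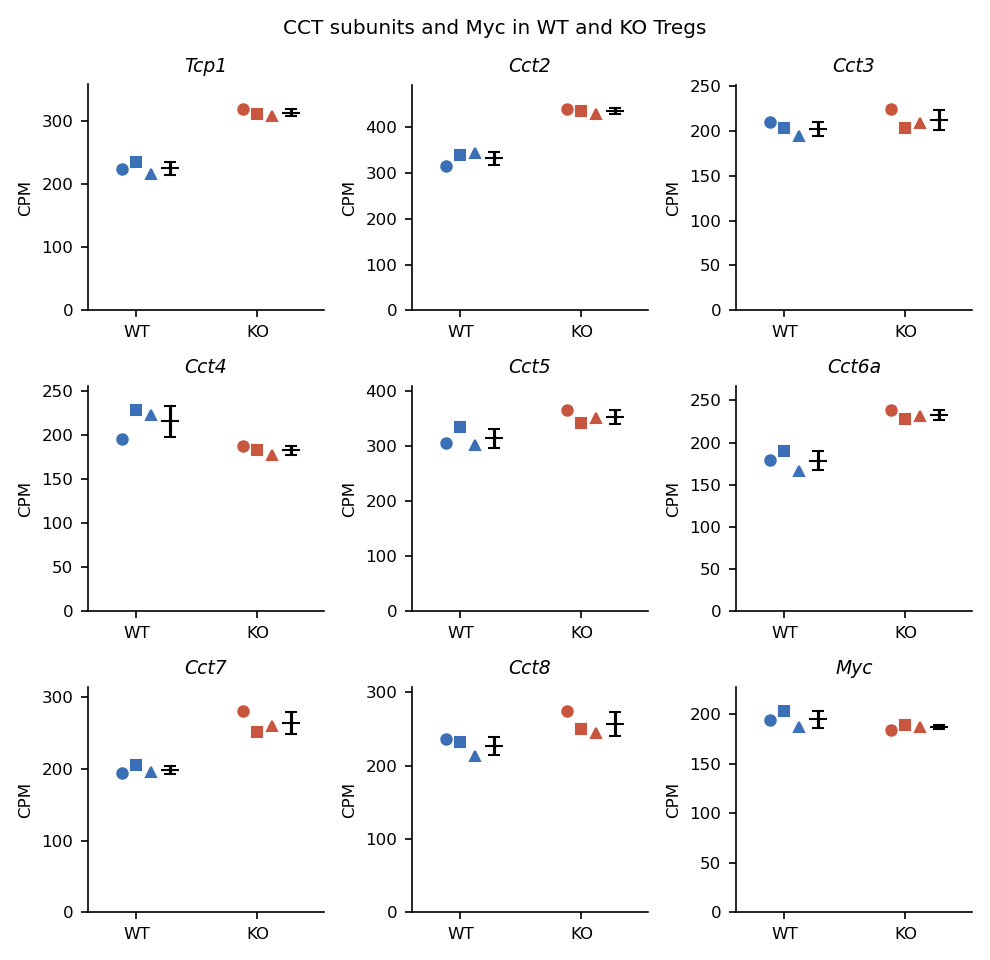
Expression of the 8 CCT subunits and Myc in CPM (vertical axes, starting at 0) in each WT (blue) and KO (red) sample, with circles, squares and triangles for replicates 1 to 3 and black bars for mean ± SD (n = 3). The KO samples lie above the WT samples for 6 subunits and below them for Cct4, while Cct3 and Myc overlap.

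Cct3 (CCT-gamma), Cct5 (CCT-epsilon) and Cct8 (CCT-theta) did not reach an adjusted p under 0.05. Cct5 was measured at 306, 335 and 302 CPM in WT and at 366, 342 and 351 CPM in KO, and Cct8 at 236, 232 and 213 CPM in WT and 275, 249.7 and 245 CPM in KO. In both genes the KO samples lay above the WT samples by a narrow margin. The log2 fold changes were 0.17 (SE 0.07, adjusted p 0.0963) for Cct5 and 0.18 (SE 0.08, adjusted p 0.106) for Cct8. Cct8 overlaps Usp16 by 192 bases on the opposite strand. Over the 8 subunits, every KO sample was above every WT sample for 6 and below for 1, against 26.2% and 27.6% of all genes tested. In either direction the groups were separate for 53.8% of all genes.

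Cct3 was measured at 209, 203 and 194 CPM in WT and at 225, 203 and 209 CPM in KO, and the groups overlapped. Its log2 fold change was 0.07 (SE 0.07, adjusted p 0.466), with a 95% interval from -0.09 to 0.23, which bounds any difference well under 1.5-fold. A processed pseudogene, Cct3-ps1, is 91.4% identical to Cct3 over 1650 bases and has no row in the table. Tsacc, a gene for a co-chaperone known from testis that starts 117 bases from Cct3 on the opposite strand, fell from 1.99 ± 0.447 to 0.636 ± 0.161 CPM (SD, n = 3; log2 fold change -1.64, adjusted p 0.012). The genes that start next to Cct5 and Cct8 on the opposite strand, Fam173b and B130034C11Rik, have no row under these symbols.

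**Figure D2:**
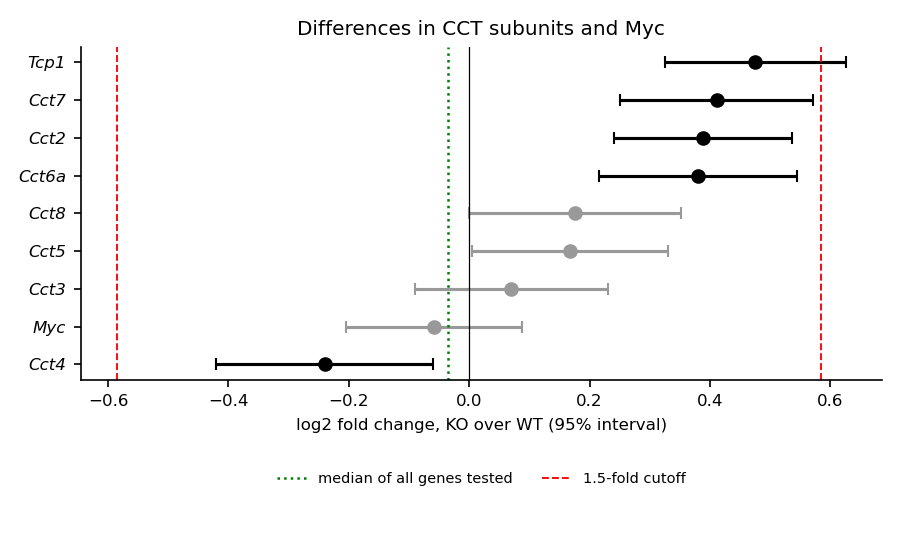
Log2 fold change of KO over WT (horizontal axis) for the 8 CCT subunits and Myc with its 95% interval, in black where the adjusted p was under 0.05 and grey otherwise, with the median of all genes dotted in green and the 1.5-fold cutoffs dashed in red. Tcp1, Cct7, Cct2 and Cct6a stand between 0.38 and 0.48, Cct4 stands at -0.24, and none of the points reaches a cutoff.

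Each ring of CCT takes 1 copy of each subunit protein, but subunit protein was not measured. RNA levels do not give the makeup of the complex. They were also compared between the subunits per length of their longest transcript. On this scale Cct5 had 169.7 ± 9.61 and Cct2 169.4 ± 7.22 CPM per kilobase in WT (SD, n = 3), followed by Cct3 at 102.2 ± 4.003, Cct8 at 94.8 ± 5.16, Tcp1 at 91.9 ± 4.13, Cct4 at 86.9 ± 7.07, Cct7 at 81.5 ± 2.26 and Cct6a at 72.9 ± 4.74 CPM per kilobase. The samples of Cct5 and Cct2 overlapped, as did those of each pair of neighbors from Cct3 down to Cct7. The gaps without overlap were below Cct2 and above Cct6a. In KO the order was Cct2 at 221.7 ± 2.95 and Cct5 at 190.6 ± 6.70 CPM per kilobase, then Tcp1 at 127.8 ± 2.34, with Cct7, Cct3 and Cct8 between 107.1 and 108.4, Cct6a at 94.8 ± 2.38 and Cct4 last at 73.6 ± 2.07 CPM per kilobase. In KO the samples overlapped only among Cct7, Cct3 and Cct8. Myc stood at 83.3 ± 3.57 CPM per kilobase in WT and 79.9 ± 1.03 in KO. Levels and order depend on the length taken. With the shortest consensus coding transcript, a choice made after seeing the data, Myc stood at 142.9 CPM per kilobase in WT and 137.2 in KO. With that length Tcp1 stood at 118.2 in WT, above Cct3, and at 164.4 in KO, and the other subunits kept their lengths.

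As a share of the summed level per length of the 8 subunits, Cct4 went from 9.99% ± 0.68 in WT to 7.14% ± 0.14 in KO (SD, n = 3). The share of Tcp1 was 10.6% ± 0.19 in WT and 12.4% ± 0.19 in KO, and that of Cct2 was 19.5% ± 0.90 and 21.5% ± 0.51. Cct3 held 11.8% ± 0.55 in WT and 10.4% ± 0.22 in KO, although its CPM overlapped, since the sum of the 8 was higher in KO. The remaining shares lay between 8.38% and 19.5% in WT and between 9.20% and 18.5% in KO. Shares of one sum are not independent, and no test was run on them. They are shares of RNA, not of subunit protein. With the longest transcript, the ends of the order differed between the genotypes. In WT Cct5 was 2.33-fold above Cct6a, and in KO Cct2 was 3.01-fold above Cct4. At the top, the WT samples of Cct5 and Cct2 overlapped. With the median transcript length, Cct2 was highest and Cct4 lowest in both genotypes (4.90-fold in WT, 7.58-fold in KO). Over all 6 samples, the longest transcript put Cct2 (highest) 2.39-fold above Cct4 (lowest). This fold rests on the transcript length taken.

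**Figure D3:**
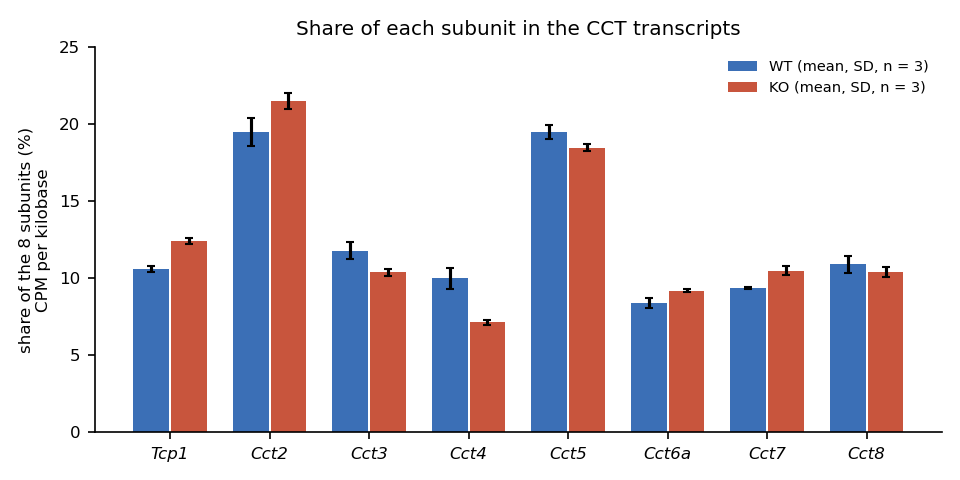
Share of each of the 8 CCT subunits in their summed CPM per kilobase of the longest transcript (vertical axis, percent, starting at 0), as mean with SD over 3 WT (blue) and 3 KO (red) samples. Cct2 and Cct5 hold the largest shares in both genotypes, the bar of Tcp1 is taller in KO, and that of Cct4 is shorter, at 7.14% against 9.99%.

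Across the 6 samples, Tcp1, Cct2, Cct6a and Cct7 followed each other with Pearson correlations of log2 CPM between 0.93 and 0.99, and Cct4 ran against each other subunit, from -0.81 with Tcp1 to -0.559 with Cct3. These are descriptions over 6 samples of 2 genotypes that share their libraries. The genes most like the mean profile of the 8 subunits, among 9873 with a mean of at least 5 CPM, were Psmd14 (r = 0.997), Cars (0.997), Bcap31 (0.997), Cks2 (0.997) and Serbp1 (0.996). As many as 1392 genes had r above 0.9 with this profile, so these 5 are not set apart.

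Of the proteins that work with CCT, prefoldin was examined first. Of its 6 subunits 0 were called, beside 24.4% called among all genes. Vbp1, the subunit also known as Pfdn3, was higher in KO, at 27.9, 43.7 and 42.2 CPM in WT and 48.1, 57.5 and 56.4 CPM in KO (log2 difference 0.51, SE 0.17 and adjusted p 0.0465). Pfdn5, also known as Myc modulator 1 because it binds Myc, was lower, at 131.3, 151.1 and 170.2 CPM in WT and 125, 117 and 125.6 CPM in KO (log2 difference -0.30, SE 0.10 and adjusted p 0.0449). In both the groups were separate. Vbp1 was called when KO replicate 1, WT replicate 2 or WT replicate 3 was left out. Pfdn1, Pfdn2, Pfdn4 and Pfdn6 had log2 fold changes of -0.06, -0.04, 0.25 and 0.05, none with an adjusted p under 0.15, and the median of the 6 was 0.01.

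Among 6 other tested helpers and prefoldin-like proteins, 1 was called and none rose, beside 24.4% called among all genes. Pdrg1, a subunit of the prefoldin-like complex, fell from 57.7 ± 11.8 to 37.7 ± 3.37 CPM (SD, n = 3; log2 fold change -0.61, SE 0.15, adjusted p 0.014). No gene of this group was called without WT replicate 1 or without KO replicate 2. With no fold cutoff, 1 of the 6 was higher and 2 were lower, beside 19.2% and 19.4% of all genes. Pdcl3 was higher (log2 fold change 0.41, adjusted p 0.00933), and Uri1 was lower along with Pdrg1 (-0.22, adjusted p 0.0388 for Uri1). The median of the group was -0.16. The 4 relatives of CCT with a row (Cct6b, Mkks, Bbs10 and Bbs12), of which the last 3 assist assembly of a ciliary complex, were all at or under 12.4 CPM, and none was called. Of the 6 tubulin folding cofactors, which act after CCT, none was called, and the median log2 fold change was -0.02. With no fold cutoff, Tbcb and Tbcd were higher (log2 fold changes 0.30 and 0.31, adjusted p 0.0269 and 0.00789) and none was lower.

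Actins and tubulins, the main clients of CCT, were mostly higher in KO. Of 14 actin and tubulin genes, 9 rose and 1 fell, with a median log2 fold change of 0.77, against 24.4% of all genes called. Tubb3 rose from 0.79 ± 0.252 to 5.82 ± 1.02 CPM (SD, n = 3; log2 fold change 2.88, SE 0.31, adjusted p 0.000442). Tubb6 rose with a log2 fold change of 1.48 (SE of 0.22, adjusted p 0.00161), and Tubb4b, at 156.1, 155.6 and 130.2 CPM in WT and 348.3, 334 and 356.7 CPM in KO, rose with one of 1.23 (SE 0.09, adjusted p 6.77e-05). Tubb4a, at 7.19 to 7.50 CPM in WT, fell with a log2 fold change of -0.77 (adjusted p 0.0186). The 2 cytoplasmic actins were chosen after their values were seen. Actg1 rose, at 2186, 2321 and 1678 CPM in WT and 4052, 4057 and 4028 CPM in KO (log2 difference 0.97, SE 0.12 and adjusted p 0.000671), whereas Actb had a log2 fold change of 0.28 (SE of 0.16, adjusted p 0.21), with WT replicate 3 at 3091 CPM against 4826 and 4910 in the other WT samples. Tubulin and actin genes are members of families with similar sequences, so that single forms are uncertain.

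Of 12 other clients, most of them WD40 repeat proteins, 2 rose and 1 fell, a share near the 24.4% of all genes, with a median log2 fold change of 0.31. With offsets for GC content and length, 5 of the 12 were called. Plk1, a mitotic kinase, rose from 19.1 ± 7.48 to 76.0 ± 4.03 CPM, and Cdc20, the activator of the anaphase-promoting complex, from 31.2 ± 10.4 to 99.2 ± 0.79 CPM (SD, n = 3; adjusted p 0.00119 and 0.00115). Gnb5, a G protein beta subunit at 3.69 to 4.90 CPM in WT, fell with a log2 fold change of -0.74 (adjusted p 0.0462), and was called in 2 of 6 fits with a sample left out. Plk1 and Cdc20 move with the cell cycle. All 16 genes of dividing cells rose (15 without WT replicate 3, which leaves out Mcm6), with a median log2 fold change of 1.64 and the highest values in Rrm2 (2.46), Ccna2 (2.11) and Mki67 (2.09). Their summed level was 1296 to 2256 CPM in WT and 5562 to 5811 CPM in KO, and the part of division in the CCT and client values was not tested.

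Of 31 other cytosolic and mitochondrial chaperones and their regulators, 4 rose and 1 fell, beside 24.4% called among all genes, with a median log2 fold change of 0.19. Fkbp5, an Hsp90 co-chaperone that glucocorticoids induce, was at 89.5, 85.6 and 127.5 CPM in WT and 258.3, 246.1 and 250.6 CPM in KO, a rise of 1.32 on the log2 scale (SE 0.15, adjusted p 0.000489). Dnajb6, an Hsp70 partner, and Hsp90aa1, the inducible cytosolic Hsp90, rose with log2 fold changes of 0.84 and 0.73 (adjusted p 0.000389 and 0.000651). The fourth was Hspd1, the subunit of the mitochondrial chaperonin. Hsf1, the transcription factor of the heat shock response, fell, at 60.5, 63.6 and 71.6 CPM in WT and 42.5, 42.3 and 40.8 CPM in KO (log2 difference -0.64, SE 0.08 and adjusted p 0.000963). Without WT replicate 3 its log2 fold change was -0.57, short of the fold cutoff. The inducible Hsp70 genes Hspa1a and Hspa1b, near-identical copies named after their values were seen, were not called (adjusted p 0.574 and 0.684). Hspa1a had 0.136, 0 and 2.25 CPM in WT and 1.92, 1.32 and 1.36 CPM in KO, and Hspa1b had 0.625, 1.16 and 4.78 CPM in WT and 2.38, 3.06 and 3.15 CPM in KO. In both WT replicate 3 was the highest WT sample, and without it both were called as higher in KO (adjusted p 0.000399 and 0.00253).

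**Figure D4:**
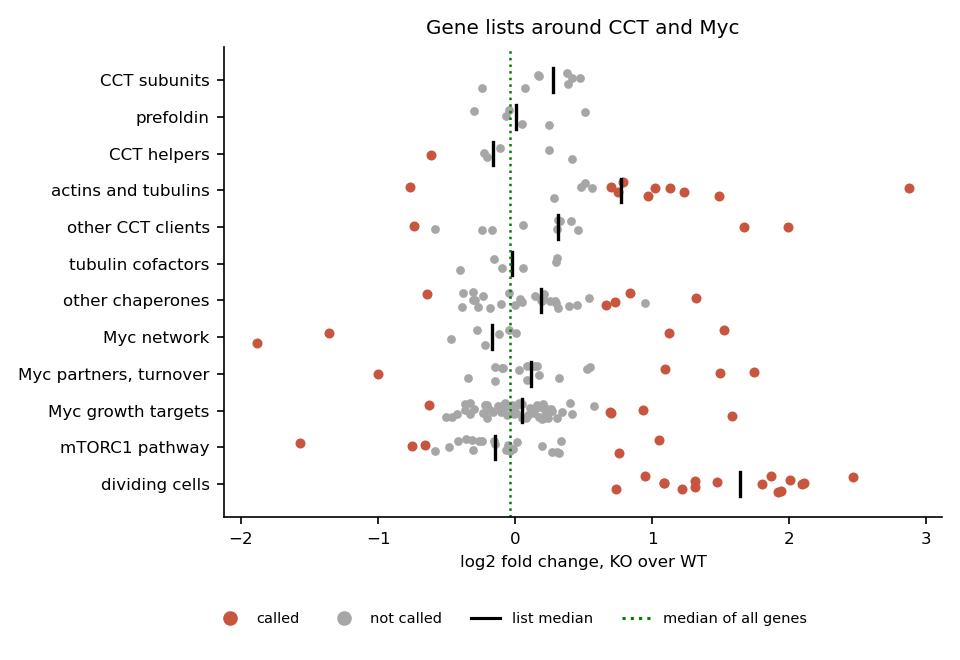
Log2 fold change of KO over WT (horizontal axis) for each tested gene of 12 lists around CCT and Myc, in red where called and grey otherwise, spread vertically only to separate points, with list medians as black lines and the median of all genes dotted in green. The CCT subunits cluster at small positive values with a median of 0.28 and no called gene, while actins and tubulins have a median of 0.77 and genes of dividing cells one of 1.64.

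Myc itself was nearly level between the genotypes. It was measured at 194, 203 and 187 CPM in the WT samples and at 184, 189 and 187 CPM in the KO samples, and the groups overlapped. The log2 fold change was -0.06 (SE 0.06, adjusted p 0.506), and the 95% interval ran from -0.21 to 0.09. A difference of 1.5-fold in either direction lies outside this interval. The spread within KO was small, at 186.9 ± 2.40 CPM (SD, n = 3). No overlapping gene and no similar copy of Myc was found. The counts concern Myc RNA, and Myc protein, which is regulated by turnover, was not measured. The genes most like Myc over the 6 samples were Serf2 (r = 0.98), Ttc14 (0.979), Fxyd5 (0.979), Fubp1 (0.976) and Cenpx (0.973), and 109 of the 9873 genes had r above 0.9.

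The partners and antagonists of Myc were examined next. Of the 10 tested genes of the Myc and Max network, 2 rose and 2 fell, beside 11.9% and 12.5% of all genes tested. Mxd4, an antagonist that pairs with Max, was measured at 363.5, 336.4 and 301.8 CPM in WT and at 90.2, 91.4 and 89.8 CPM in KO, and fell with a log2 fold change of -1.88 (SE of 0.08, adjusted p 9.99e-06). The KO samples lay close together and far below the WT samples. Mxd1, another antagonist, went the opposite way, from 126.2, 118.3 and 183.3 CPM in WT to 316.1, 309.7 and 308 CPM in KO, a rise of 1.13 on the log2 scale (SE 0.16, adjusted p 0.00122). Mxd3, the family member known from dividing cells, rose from 13.0, 13.5 and 5.59 CPM to 28.3, 30.4 and 33.6 CPM (log2 fold change 1.52, SE 0.30, adjusted p 0.00543). In none of these genes did the groups overlap, which also held for 53.8% of all genes tested. The antagonists changed in both directions.

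Max, the obligate partner of Myc, was lower in KO without passing the fold cutoff. It was measured at 118.4, 115.6 and 161 CPM in WT and at 94.8, 95.2 and 96.2 CPM in KO, with the groups separate and WT replicate 3 highest (log2 fold change -0.46, SE 0.13, adjusted p 0.0216). Mga, a large repressor that also pairs with Max, was lower too (log2 fold change -0.28, adjusted p 0.0352). Mnt, at 74.0 to 75.4 CPM in WT and 72.2 to 77.4 CPM in KO, was nearly level (0.003, adjusted p 0.976), and Mxi1, Mlx and Mlxip had log2 fold changes of -0.12, -0.05 and -0.22 with overlapping groups. Mycn, the paralog of Myc, was near the limit of detection, at 0.272 to 0.639 CPM in WT and 0.142 to 0.224 CPM in KO. It met the cutoffs as lower (log2 fold change -1.35, adjusted p 0.0966) on very few counts, and was called in 1 of 6 fits with a sample left out and in 2 of 6 others.

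**Figure D5:**
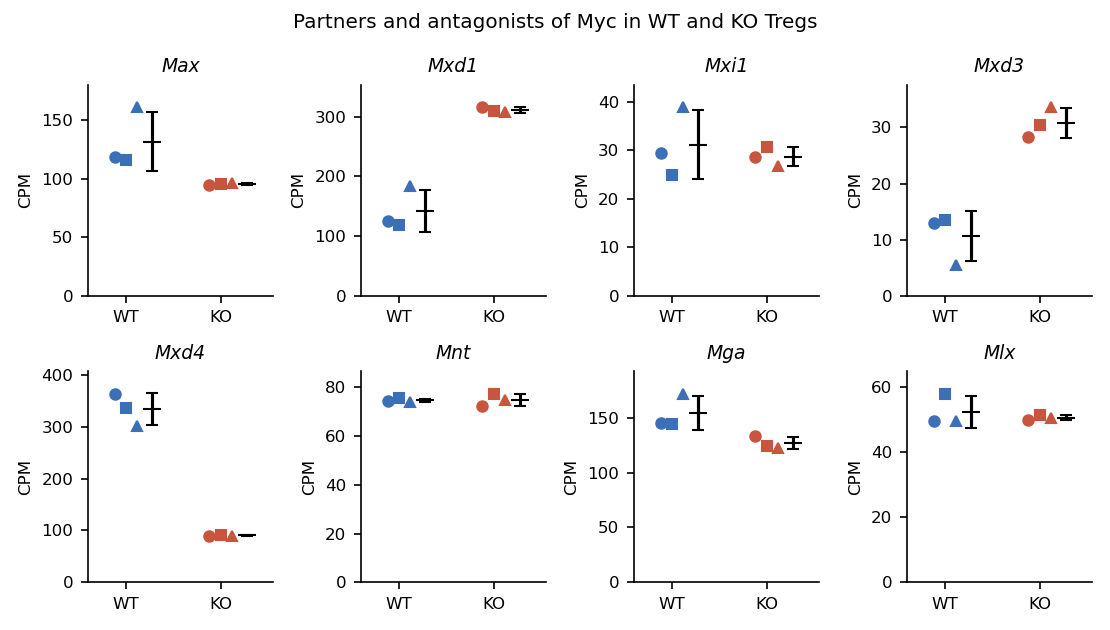
Expression in CPM (vertical axes, starting at 0) of Max and 7 other genes of the Myc and Max network in each WT (blue) and KO (red) sample, with circles, squares and triangles for replicates 1 to 3 and black bars for mean ± SD (n = 3). Mxd4 is lower and Mxd1 and Mxd3 are higher in KO with wide gaps, Max is lower by a narrower gap, and Mnt lies at the same level in both genotypes.

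Of 18 cofactors of Myc and genes of its turnover, 3 rose and 1 fell, a share near the 24.4% of all genes. Cip2a, an inhibitor of the phosphatase that marks Myc for decay, rose from 21.2 ± 7.68 to 70.9 ± 2.70 CPM (SD, n = 3; log2 fold change 1.74, adjusted p 0.00129). Aurka, a mitotic kinase, and Skp2, the substrate receptor of a ubiquitin ligase, rose with log2 fold changes of 1.49 and 1.09 (adjusted p 0.000121 and 0.000723). All 3 are also known from dividing cells. Usp28, a deubiquitinase that counters Myc decay, fell from 67.3, 71.2 and 85.7 CPM to 35.5, 37.5 and 38.8 CPM (adjusted p 0.000356). Without WT replicate 3 the number of called genes in this group was 7 in place of 4.

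Of 55 genes of growth that are known as Myc targets, 4 rose and 1 fell, beside 24.4% called among all genes, and the median log2 fold change was 0.05. Hk2, the inducible hexokinase, rose from 12.7, 14.1 and 18.3 CPM in WT to 48.3, 45.3 and 41.6 CPM in KO (log2 difference 1.58, SE 0.15 and adjusted p 0.000215). Ldha, lactate dehydrogenase, and Mthfd2, a mitochondrial folate enzyme, rose with log2 fold changes of 0.93 and 0.70 (adjusted p 0.000292 and 0.00381). Exosc5, a subunit of the RNA exosome, fell with a log2 fold change of -0.63 (SE of 0.08, adjusted p 0.00106). With no fold cutoff, 10 of the 55 were higher and 9 lower, near the 19.2% and 19.4% of all genes tested. Without WT replicate 3 the number called was 3 in place of 5, as Mthfd2 (0.57) and Slc7a5 (0.52) no longer reached the fold cutoff.

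The mTORC1 pathway, which sets protein synthesis to the supply of growth signals and amino acids, had 2 genes that rose and 3 that fell among 25, a share near the 24.4% of all genes, with a median log2 fold change of -0.15. Sesn1, a sestrin that restrains mTORC1, fell from 115.8, 109.9 and 143.3 CPM to 44.3, 40.3 and 39.9 CPM (log2 fold change -1.57, SE 0.11, adjusted p 6.77e-05). Lamtor4, a subunit of the Ragulator complex, fell with a log2 fold change of -0.75, and Castor2, a relative of the arginine sensor, with one of -0.66 (adjusted p 0.000996 and 0.00876). Castor2 was not called without WT replicate 3 or with offsets for GC content and length. Deptor, an inhibitor of mTOR, and Castor1, the arginine sensor, rose with log2 fold changes of 1.05 and 0.76 (adjusted p 0.0213 and 0.000792). Mtor itself had a log2 fold change of -0.03 and Rptor one of -0.26, and neither was called.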

How the data were processed

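According to the methods of the study, SOAPnuke filtered the reads, which were aligned to mm10 with HISAT2 keeping a single alignment per read, and quantified with StringTie. The authors deposited one table of unnormalized whole-number counts per gene. How the whole numbers were made, the annotation and the use of strand are not given in the sources used here. Keeping a single alignment can move reads between similar genes. The lowest sum of a gene was 60 counts, so rarely counted genes had been left out of the table.

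The total count per sample was 32032631 to 40728419. At these depths counting error of the median CCT subunit was 0.992% to 1.18% (coefficient of variation), and a count of 0 allows up to 0.0737 to 0.0937 CPM (3 counts). Such limits cover counting error alone, as PCR copies of a molecule are counted too. Genes were filtered with filterByExpr (minimum count 10, 115 rows removed), scaled by TMM and tested with edgeR 4.0.16 (R 4.3.3; glmQLFit and glmQLFTest, KO against WT, 6 samples, no covariate, two-sided), with Benjamini-Hochberg adjustment over all genes tested. An SE is the log2 fold change divided by the square root of F. Nothing states that replicates were separate animals, so p-values measure the spread between these samples. With 3 samples against 3, an exact permutation test of a single value cannot go below a p of 0.1 and was not used. Replicate pairs differed by more than sampling noise.

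Lengths, positions and overlaps came from GENCODE M21, and 97.87% of symbols had a gene model. The test was checked on simulated counts of 13437 genes with 195 changed. At an adjusted p under 0.05, 8.20% of genes changed 1.3-fold, 37.2% of those changed 1.5-fold and 77.6% of those changed 4-fold were recovered. Of these calls, 3.23% were unchanged genes. In the data 38.6% of genes passed this adjusted p, a far larger share, so the adjustment was stricter in the simulation. The recovered shares therefore do not carry over to the data.

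The members and gene lists were chosen with earlier results of these data known. Named were the 9 members, Zfp335, the prefoldin subunits, Max, Hsf1, up to 3 highest and 3 lowest called genes of each other list, genes starting within 1 kilobase on the opposite strand, and the 5 genes most like each profile. Further named genes were chosen after their values were seen. Alternatives were DESeq2 1.42.0, other scalings, filters and cutoffs, a replicate block, offsets for GC content and length, other transcript lengths and each sample left out.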

Additional observations from a re-analysis of the deposited data

How the results depend on the processing

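Tcp1, Cct2, Cct6a and Cct7 kept their direction and an adjusted p under 0.05 in 6 of 6 fits with a sample left out and in 7 of 7 other fits (DESeq2, other scalings and filters, the replicate block, and offsets for GC content and length). Cct3, Cct5, Cct8 and Myc stayed above 0.05 in all of these. The log2 fold change of Myc ranged from -0.10 to -0.03. No value changed sign in any member. The cutoff mattered most: with an adjusted p under 0.05 and no fold cutoff, 5244 genes and 5 CCT subunits passed in place of 3318 and 0, and 1686 genes passed when glmTreat tested against 1.5-fold. Leaving out 1 sample gave 2867 to 3667 called genes, 0 CCT subunits, CCT medians of 0.23 to 0.30 and a fold of the highest over the lowest subunit of 2.32 to 2.52. Median transcript length moved that fold from 2.39 to 6.00, as it includes fragments, and the shortest consensus coding transcript, chosen after seeing the data, gave 2.39 but raised the levels of Tcp1 and Myc. With the replicate block, 3190 genes and 0 CCT subunits were called, the CCT median was 0.28 and the adjusted p of Cct4 was 0.0826. Deviations of samples with the same number correlated at 0.038, 0.04 and -0.012. These values gave no sign that the numbers pair the samples, but they cannot exclude it. Library totals alone gave 44.8% of calls higher in KO and glmTreat 55.8%, against 48.8%. Depth limits Mycn and Cct6b, which had under 1 CPM, more than the 9 members. The Myc and Max network had 3 called genes in place of 4 under DESeq2 and without KO replicate 1, among others, where Mycn was lost.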

Other observations

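Among the 55 growth genes known as Myc targets, 19 were below an adjusted p of 0.05, whatever the fold, beside 38.6% of all genes. Of the 55, 10 were higher and 9 lower, near the 19.2% and 19.4% of all genes tested. Among those higher in KO were enzymes and transporters of metabolism, such as Cad of pyrimidine synthesis (log2 fold change 0.57, adjusted p 0.00438), Slc7a5 of amino acid uptake (0.69, 0.00784) and Shmt2 of the folate cycle (0.34, 0.00457), with the translation factors Eif4e (0.40) and Eif5a (0.42). Among those lower were factors of ribosome production, such as Ppan (-0.50, 0.00105), Polr1b of RNA polymerase I (-0.42, 0.00667), Pes1 (-0.33, 0.00396) and Gnl3 (-0.30, 0.0125). The ribosome factors Ncl (0.31) and Nop58 (0.24) were higher, and the cyclin Ccnd2 (-0.37, 0.00299) and the importin Ipo4 (-0.46, 0.0175) were lower, so neither side was of 1 kind. The examples were picked after their values were seen, and no test is given.

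The subunits of the mitochondrial chaperonin were also unequal. Hspd1 rose from 187, 189.5 and 171 CPM in WT to 303, 268 and 296 CPM in KO, by 0.66 on the log2 scale (SE 0.08, adjusted p 0.000578). Its lid, Hspe1, was at 73.5, 83.2 and 83.4 CPM in WT and 72.6, 67.6 and 70.8 CPM in KO, and differed by -0.19 on that scale (SE 0.08, adjusted p 0.0922). The pair was chosen after the values were seen.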
